A study of Mus musculus with 18 samples.

Results

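The 10 genes described here encode the NF-kB subunits and their closest regulators: the subunits Nfkb1, Nfkb2, Rela, Relb and Rel, the inhibitors Nfkbia, Nfkbib and Nfkbie, the kinase Ikbkb and the deubiquitinase Tnfaip3. They were taken from the deposited mouse table by gene symbol, and all 10 of 10 were found among its 53342 genes. Whole genes were counted, and their positions in mm10 (GENCODE M21) are as follows. On the plus strand lie Nfkb2 (ENSMUSG00000025225) at chr19:46304737-46312090, Rela (ENSMUSG00000024927) at chr19:5637483-5648130 and Nfkbie (ENSMUSG00000023947) at chr17:45555716-45563169. On the minus strand lie the other subunits, Nfkb1 (ENSMUSG00000028163) at chr3:135584655-135691547, Relb (ENSMUSG00000002983) at chr7:19606217-19629438 and Rel (ENSMUSG00000020275) at chr11:23736847-23770970. The minus strand also holds Nfkbia (ENSMUSG00000021025) at chr12:55489410-55492647, Nfkbib (ENSMUSG00000030595) at chr7:28758251-28767512, Ikbkb (ENSMUSG00000031537) at chr8:22659212-22706589 and Tnfaip3 (ENSMUSG00000019850) at chr10:19000910-19015657. Cultures of 3 cell types were transfected, each in a mix and a control arm: Neuro-2A, a mouse neuroblastoma line that is labelled as not genetically modified, wild-type primary mouse astrocytes, and BV-2, an immortalised mouse microglial line with the same label as Neuro-2A. The mix arm received mimics of miR-140-5p, miR-99b-3p and miR-199a-3p in equal parts, and the control arm received the nematode microRNA cel-miR-67, in both cases at 25 nM with the transfection reagent Dharmafect 1 for 24 h. Mimics are synthetic copies of a microRNA that load into the silencing machinery. Each arm of each cell type had 3 libraries, 18 in all, of poly(A) RNA. Neither the strain nor the age of the astrocyte donors is given in the labels, and no untransfected cells were analysed here, so every difference below is between mix and control mimic.

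NF-kB is a family of dimeric transcription factors that waits in the cytoplasm, bound by IkB inhibitor proteins. Cytokines such as TNF and IL-1, and microbial products sensed by Toll-like receptors, activate the IKK complex through adaptor proteins and ubiquitin chains; IKK then phosphorylates the IkB proteins, which are ubiquitinated and degraded, and the freed dimers enter the nucleus. Several of the inhibitors, among them Nfkbia and Tnfaip3, are themselves target genes of NF-kB, so their transcripts are widely used as a readout of the pathway's negative feedback; in glia the pathway is known for its part in inflammatory gene expression.

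Total counts lay between 18.5 and 27.9 M per library, and the members had between 140 and 3436 counts in a library, so all 10 were tested in every cell type. The defining markers of the labelled cell types were checked first. All 10 astrocyte markers were above 1 TPM (a share of all transcripts, scaled by gene length, whose floor in the table is 1) in every astrocyte library and all 14 microglial markers in every BV-2 library, while 8 of 10 neuronal markers were above it in every Neuro-2A library and Dcx was listed at the floor in all of them. The astrocyte cultures also held transcripts of other cells: the 14 microglial markers summed to 734 to 1016 TPM in mix and 742 to 844 TPM in control astrocyte libraries. In those cultures 1 of the 14 rose and 0 fell, whereas 6 of 10 astrocyte markers fell, with sums of 7624 to 8251 TPM in the mix arm and 9463 to 9971 TPM in the control arm. The part of these other cells in the results below was not tested, and in such bulk libraries fewer cells of a type and less RNA per cell cannot be told apart. The labels do not say whether the replicates were separate cultures, so p-values measure only the spread between these libraries.

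The mature sequences of the mimicked microRNAs are shown because their seeds, bases 2 to 8 and in capitals here, are what a direct target would pair with. Both microRNAs below were found in the RefSeq table for GRCm38.p6. Mature miR-199a-3p is made from chr9:21496498-21496519 on the minus strand and chr1:162217883-162217904 on the plus strand, with the same sequence from both, and miR-99b-3p from chr17:17830232-17830253 on the plus strand. The sites of miR-140-5p and cel-miR-67 were not searched here.
miR-199a-3p: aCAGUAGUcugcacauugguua
miR-99b-3p: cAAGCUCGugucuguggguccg

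In the longest annotated 3′ UTR of each gene (GENCODE M21, mm10), an 8mer (ACTACTGA or CGAGCTTA) or a 7mer-m8 site (the same without the final A) of these 2 microRNAs was found in 0 of the 10 members. Over all 20952 genes with an annotated 3′ UTR, 7.74% held such a site for miR-199a-3p and 1.76% for miR-99b-3p. A weaker 7mer-A1 site of miR-99b-3p (GAGCTTA), a class held by 5.38% of all genes, was found in 2 members. Rel carried it at bases 1563 to 1569 of its 5418-base 3′ UTR (chr11:23740696-23740702, minus strand), and Ikbkb at bases 384 to 390 of its 1622-base 3′ UTR (chr8:22661000-22661006, minus strand). Both are printed with the site in capitals; a match is a stretch of letters and was not tested for binding.
Rel: agtatcttcttGAGCTTAaaaggaaaggt
Ikbkb: actttcagacaGAGCTTAaacagttgttg

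Levels under control mimic differed widely between the cell types. Nfkbia and Rela had the highest TPM of the 10 in each of them, and the lowest was Tnfaip3 in Neuro-2A, Rel in astrocytes and Ikbkb in BV-2. In control astrocytes Nfkbia averaged 222 ± 22 TPM and Rela 125 ± 2.8 TPM (SD, n = 3), followed by Nfkb2 at 62.7 TPM, then by Relb, Nfkbib, Nfkb1 and Nfkbie between 29.2 and 23.2 TPM, Ikbkb at 12.2, Tnfaip3 at 11.4 and Rel at 4.51 TPM. Within that order the libraries' ranges of Relb and Nfkbib overlapped, as did those of Ikbkb and Tnfaip3. In control Neuro-2A cells the order was Nfkbia at 165 TPM, Rela at 56.5, Nfkbib at 40.1, Nfkb2 at 31.3, Relb at 13.8, Nfkb1 at 11.9, Ikbkb at 11.1, Nfkbie at 9.29, Rel at 5.97 and Tnfaip3 at 3.65 TPM, and 0 of the 9 pairs of neighbours overlapped. In control BV-2 cells it was Nfkbia at 134 TPM, Rela at 99.6, Nfkb2 at 76.6, Nfkbib at 53.2, Nfkb1 at 31.7, Tnfaip3 at 23.3 and Relb at 17.6 TPM, and then Rel, Nfkbie and Ikbkb between 14.8 and 12.6 TPM, with overlap between Relb and Rel, Rel and Nfkbie, and Nfkbie and Ikbkb.

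The control levels were compared between cell types with edgeR's quasi-likelihood test, from 1 model over the 18 libraries and with p-values adjusted by the Benjamini-Hochberg method over all 20308 genes tested. Between astrocytes and Neuro-2A cells 10 of 10 members differed, where 87.3% of all genes did. Astrocytes and BV-2 cells differed in 9 of 10 members and in 86.9% of all genes, and Neuro-2A and BV-2 cells in 9 of 10 members and in 79% of all genes, so these shares are near those of any gene; the median difference over all genes was 0.21, 0.26 and 0.08 on the log2 scale for the 3 pairs in that order. The largest of the members' differences was that of Tnfaip3, which encodes A20, an enzyme that edits ubiquitin chains and shuts off IKK activation: its level in Neuro-2A minus that in BV-2 was −2.83 ± 0.11 on the log2 scale (SE), and in astrocytes minus Neuro-2A 1.76 ± 0.11. Rel, the c-Rel subunit best known from blood cells, was lower in astrocytes than in BV-2 cells by a log2 difference of −1.76 ± 0.09. Ikbkb was not called between astrocytes and BV-2 cells (log2 difference −0.11, 95% confidence interval −0.24 to 0.02, adjusted p = 0.104), nor Nfkbia between Neuro-2A and BV-2 cells (0.13, interval −0.06 to 0.33, adjusted p = 0.202). Cell type, medium and seeding density changed together, so their parts cannot be told apart.

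**Figure D1:**
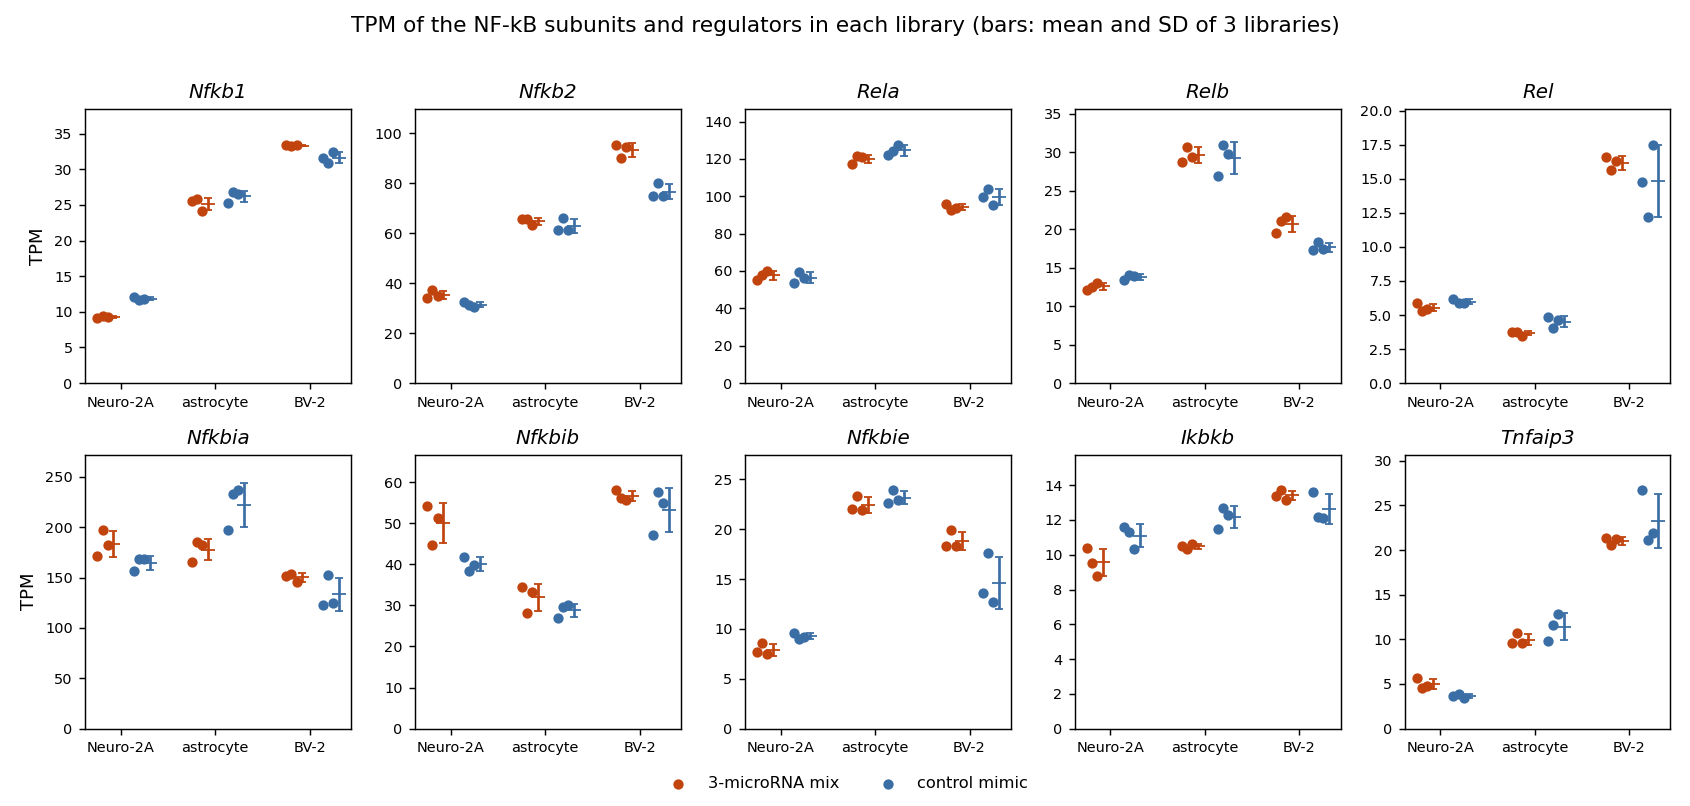
TPM (linear axis from 0, a separate scale in each panel) of the 10 genes in every library of the 3 cell types, mix left of control mimic, with 1 point per library and the mean and SD of 3 libraries as a bar. The distance between cell types exceeds that between arms for most genes, and in astrocytes the 3 mix libraries of Nfkbia, Rel, Ikbkb and Rela lie below their 3 control libraries.

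Within each cell type the mix libraries were set against those of the control mimic. In astrocytes 6 of the 10 members fell (Nfkb1, Rela, Rel, Nfkbia, Ikbkb and Tnfaip3) and 0 rose at an adjusted p under 0.05 in edgeR; of all 17770 genes tested there, 20.6% fell and 19.7% rose. In Neuro-2A cells 1 of the 10 fell (Nfkb1) and 2 rose (Nfkbib and Tnfaip3), where 7.88% of 16160 genes fell and 5.01% rose. In BV-2 cells 0 of 10 were called by edgeR, where 5.41% of 14961 genes fell and 4.61% rose; 3 members (Nfkb2, Rela and Tnfaip3) had an unadjusted p under 0.05 there, and DESeq2 called 1, Nfkb2. The median log2 fold change of the members was −0.12 in astrocytes, −0.02 in Neuro-2A and 0.04 in BV-2 cells, and that of all tested genes was 0.01, 0.01 and 0.00 in the same cell types. The TPM of the mix and control libraries did not overlap for 4 members in astrocytes, all lower in the mix, for 8 in Neuro-2A, 4 lower and 4 higher, and for 4 in BV-2, all higher. Over all tested genes that share, in either direction, was 52.4% in astrocytes, 32.5% in Neuro-2A and 32.8% in BV-2. On the log2(TPM + 1) scale the median change of all tested genes was 0.05 in astrocytes and 0.05 in BV-2 cells. The median TPM change thus leaned to the mix in both, while single genes, such as Rela, went the other way. Of the 9 calls, 4 held under every alternative run: Nfkb1 in Neuro-2A cells and Rel, Nfkbia and Ikbkb in astrocytes.

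**Figure D2:**
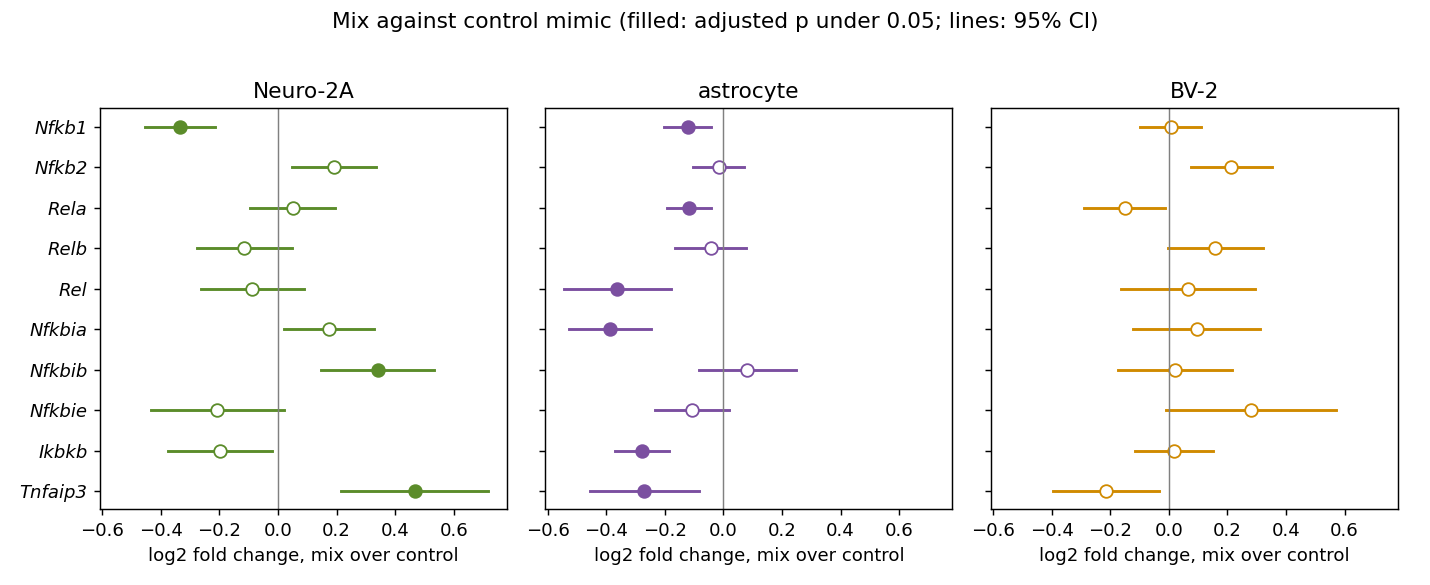
Log2 fold change of mix over control mimic (horizontal axis) for each of the 10 genes in Neuro-2A, astrocyte and BV-2 cells, with 95% confidence intervals; filled points passed an adjusted p under 0.05. In astrocytes 6 filled points lie left of 0, in Neuro-2A 1 lies left and 2 lie right, and in BV-2 no point is filled.

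Among the subunits, Nfkb1, which encodes the p105 precursor of p50, fell in Neuro-2A cells. It had 9.17, 9.39 and 9.32 TPM in the mix libraries, against 12.1, 11.7 and 11.8 TPM in the control libraries. Every mix library was lower than every control library, and the log2 fold change was −0.33 ± 0.05 (SE, adjusted p = 0.00606), a change of −20.7%; it was called in 14 of 14 alternatives. In astrocytes Nfkb1 had 25.5, 25.8 and 24.2 TPM in the mix and 25.3, 26.8 and 26.5 TPM in the control libraries. These values overlap, and the log2 fold change of −0.12 ± 0.04 (adjusted p = 0.0185) was no longer called without mix replicate 3 (adjusted p = 0.0681) or without control replicate 2 (0.0645). BV-2 cells had 33.2 to 33.4 TPM in the mix and 30.9 to 32.5 TPM in the control arm; these TPM do not overlap, but on the TMM-scaled counts that edgeR tests the log2 fold change was 0.01 (interval −0.10 to 0.11, adjusted p = 0.951). Nfkb1 overlaps the model Gm43430 on the same strand, so its counts are uncertain where the models overlap.

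Rel fell in astrocytes, where it is the least abundant member. It had 3.72, 3.78 and 3.49 TPM in the mix libraries, against 4.84, 4.07 and 4.62 TPM in the control libraries. The arms did not overlap, with 174 to 195 counts per mix library and 223 to 280 per control library, and the log2 fold change was −0.36 ± 0.08 (adjusted p = 0.0041), called in 13 of 13 alternatives. In Neuro-2A cells Rel averaged 5.54 ± 0.28 TPM in the mix and 5.97 ± 0.18 TPM in the control arm (log2 fold change −0.09, adjusted p = 0.518). BV-2 cells averaged 16.2 ± 0.5 TPM in the mix and 14.8 ± 2.7 TPM in the control arm (0.07, interval −0.16 to 0.29), with control replicates between 12.2 and 17.5 TPM.

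Rela encodes p65, the subunit that carries the transactivation domain of the most common dimer. In astrocytes it had 117, 121 and 121 TPM in the mix libraries and 122, 124 and 128 TPM in the control libraries. The arms were apart by a narrow margin, and the change of −7.76% (log2 fold change −0.12 ± 0.03, adjusted p = 0.0171) was not called without mix replicate 1 (adjusted p = 0.0762) or control replicate 3 (0.0628). With limma on log2(TPM + 1), where the median change of all astrocyte genes was 0.05, Rela changed by −0.05 (adjusted p = 0.131) and Nfkb1 by −0.06 (0.285), and in the edgeR fit of all 18 libraries Rela changed by −0.11 (0.208) and Nfkb1 by −0.11 (0.0642); neither was called in those fits. In Neuro-2A cells Rela averaged 57.7 ± 2.5 TPM in the mix and 56.5 ± 2.9 TPM in the control arm, and in BV-2 cells 94.2 ± 1.5 and 99.6 ± 4.2 TPM in the same order of arms; neither was called (log2 fold change 0.05 with adjusted p = 0.669 in Neuro-2A, and −0.15 with adjusted p = 0.161 in BV-2 cells).

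Nfkb2, the p100 precursor of p52, and Relb, its partner in the noncanonical pathway, were called in 0 of the 3 cell types. Nfkb2 had the highest log2 fold change of the members that were not called in Neuro-2A cells, 0.19 ± 0.06 (adjusted p = 0.084), with 34.2, 37.1 and 34.7 TPM in the mix against 32.2, 31.4 and 30.4 TPM in the control libraries. In BV-2 cells it had 95.3, 90.0 and 94.3 TPM in the mix against 74.8, 79.9 and 75.0 TPM in the control libraries. All 3 BV-2 mix libraries were higher, and the log2 fold change of 0.21 ± 0.06 had an adjusted p of 0.0597. DESeq2 called it (adjusted p = 0.0398), as did limma on log2(TPM + 1) (0.022) and edgeR without control replicate 2 (0.00213). In astrocytes Nfkb2 averaged 64.8 ± 1.4 TPM in the mix and 62.7 ± 2.7 TPM in the control arm. Relb averaged 12.5 ± 0.4 TPM in mix and 13.8 ± 0.4 TPM in control Neuro-2A cells, 29.6 ± 1.0 and 29.2 ± 2.1 TPM in mix and control astrocytes, and 20.7 ± 1.1 and 17.6 ± 0.6 TPM in mix and control BV-2 cells, with adjusted p between 0.207 and 0.58. Nfkb2 overlaps Psd on the opposite strand, and whether the counting used strand is not given in the sources used here.

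Nfkbia, which encodes IkB-alpha, the inhibitor that NF-kB itself induces, fell in astrocytes. It had 166, 185 and 183 TPM in the mix libraries, against 197, 233 and 237 TPM in the control libraries. Each mix library was below each control library; the log2 fold change was −0.39 ± 0.06 (adjusted p = 0.000412), a change of −23.5%, called in 13 of 13 alternatives. In Neuro-2A cells Nfkbia had 171, 197 and 182 TPM in the mix, against 157, 168 and 169 TPM in the control libraries. There all mix libraries were higher, but the log2 fold change of 0.17 ± 0.07 was not called (adjusted p = 0.132). BV-2 cells had 151, 154 and 145 TPM in the mix and 123, 152 and 125 TPM in the control libraries, which overlap through control replicate 2. The log2 fold change there was 0.10 ± 0.10 (adjusted p = 0.603) and became 0.23 (adjusted p = 0.00584) without that library. Calls over all tested genes also shifted when 1 BV-2 library was left out, ranging from 434 to 2985.

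Nfkbib, which encodes IkB-beta, rose in Neuro-2A cells. It had 54.3, 44.7 and 51.2 TPM in the mix libraries, against 41.9, 38.5 and 39.9 TPM in the control libraries. The arms did not overlap, and the log2 fold change was 0.34 ± 0.08 (adjusted p = 0.0348), a rise of 26.6%. The call did not hold without mix replicate 1 (adjusted p = 0.0853), mix replicate 3 (0.12), control replicate 2 (0.107) or control replicate 3 (0.105). In astrocytes Nfkbib averaged 31.95 ± 3.28 TPM in the mix and 28.8 ± 1.6 TPM in the control arm (0.08, adjusted p = 0.43), and in BV-2 cells 56.6 ± 1.2 TPM in the mix and 53.2 ± 5.4 TPM in the control arm (0.02, adjusted p = 0.918). Nfkbib overlaps Ccer2 and Sirt2 on the opposite strand, so its counts are uncertain in the same way as those of Nfkb2.

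Nfkbie, which encodes IkB-epsilon, had from 140 to 452 counts per library and was called in 0 of the 3 cell types. It averaged 7.93 ± 0.61 TPM in mix and 9.29 ± 0.31 TPM in control Neuro-2A cells (log2 fold change −0.21, adjusted p = 0.22). In astrocytes it averaged 22.5 ± 0.8 TPM in the mix and 23.2 ± 0.7 TPM in the control arm (−0.11, adjusted p = 0.166). In BV-2 cells it had 18.3, 19.9 and 18.3 TPM in the mix, against 13.6, 17.6 and 12.7 TPM in the control libraries. Those arms did not overlap, but control replicate 2 stood near the mix; the log2 fold change was 0.28 ± 0.13 (interval −0.01 to 0.57, adjusted p = 0.213) and 0.47 (adjusted p = 0.00267) without it.

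Ikbkb encodes IKK-beta, the kinase that marks IkB proteins for degradation, and fell in astrocytes. It had 10.5, 10.3 and 10.6 TPM in the mix libraries, against 11.5, 12.7 and 12.3 TPM in the control libraries. All mix libraries were lower, and the log2 fold change was −0.28 ± 0.04 (adjusted p = 0.00021), a change of −17.4%, called in 13 of 13 alternatives. In Neuro-2A cells it had 10.4, 9.51 and 8.78 TPM in the mix and 11.6, 11.3 and 10.3 TPM in the control libraries, which overlap (log2 fold change −0.20 ± 0.08, adjusted p = 0.142; 0.0446 in the fit of all 18 libraries). BV-2 cells averaged 13.4 ± 0.3 TPM in the mix and 12.6 ± 0.9 TPM in the control arm (0.02, interval −0.12 to 0.15). Ikbkb overlaps the antisense model Gm15346.

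Tnfaip3 changed in opposite directions in Neuro-2A cells and astrocytes. In Neuro-2A cells it rose: it had 5.62, 4.598 and 4.74 TPM in the mix libraries, against 3.66, 3.92 and 3.38 TPM in the control libraries. The arms did not overlap and the log2 fold change was 0.47 ± 0.11 (adjusted p = 0.0293), but from only 265 to 319 counts per mix library and 172 to 204 per control library. Without mix replicate 1, 2 or 3 the adjusted p was 0.0707, 0.0577 or 0.0739, and without control replicate 2 or 3 it was 0.0542 or 0.108. In astrocytes Tnfaip3 had 9.60, 10.7 and 9.57 TPM in the mix, against 9.86, 11.6 and 12.9 TPM in the control libraries. The log2 fold change was −0.27 ± 0.09 (adjusted p = 0.024), but the TPM overlap, and the call did not hold without mix replicate 1 (0.0768) or 3 (0.064), or without control replicate 2 (0.0613) or 3 (0.103). In BV-2 cells it had 21.3, 20.5 and 21.2 TPM in the mix and 26.7, 21.1 and 21.9 TPM in the control libraries, which overlap (−0.21 ± 0.08, adjusted p = 0.137; 0.0383 without control replicate 2).

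In Neuro-2A cells libraries with the same replicate number deviated together, most clearly those numbered 1. With the number as a block, 6 of 10 members were called there instead of 3: beside Nfkb1, Nfkbib and Tnfaip3 these were Nfkb2 (log2 fold change 0.19, adjusted p = 0.00775), Nfkbia (0.17, adjusted p = 0.00287) and Ikbkb (−0.20, adjusted p = 0.00168). The block lowered the coefficient of variation between libraries, taken over all tested genes, from 8.64% to 3.17%. The share of all genes called with the block is not reported here, so the added calls cannot be read as particular to the members.

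Whether the mix acted differently on a member in different cell types was tested as a difference of log2 fold changes, over 20308 genes in the fit of all 18 libraries. For astrocytes minus Neuro-2A, 3 of 10 members passed, where 4.68% of all genes did. Tnfaip3 differed by −0.73 ± 0.15 (adjusted p = 0.00874), with log2 fold changes of −0.27 in astrocytes and 0.47 in Neuro-2A cells. Nfkbia differed by −0.55 ± 0.13 (adjusted p = 0.0169), with −0.39 in astrocytes and 0.17 in Neuro-2A cells. Nfkb1 differed by 0.22 ± 0.06 (adjusted p = 0.0465), since it was lower by less in astrocytes, but this was called in only 5 of 23 alternatives. For astrocytes minus BV-2, 1 of 10 passed, where 7.05% of all genes did: Nfkbia differed by −0.47 ± 0.13 (adjusted p = 0.0353), called in 14 of 23 alternatives. For Neuro-2A minus BV-2, 2 of 10 passed, where 3.51% of all genes did: Nfkb1 differed by −0.33 ± 0.06 (adjusted p = 0.005) and Tnfaip3 by 0.69 ± 0.15 (adjusted p = 0.0148). For Ikbkb the difference was not called: it was −0.28 (interval −0.46 to −0.09, adjusted p = 0.0666) for astrocytes minus BV-2 and −0.07 (−0.26 to 0.11, adjusted p = 0.807) for astrocytes minus Neuro-2A. The astrocyte minus BV-2 difference of Ikbkb was called in 5 of 23 alternatives. These were the replicate block (adjusted p = 0.00959), DESeq2 (0.0233), limma (0.0426), and the fits without Neuro-2A mix replicate 1 (0.0439) or BV-2 control replicate 1 (0.0336). The difference for Rel was −0.41 (adjusted p = 0.0719) for astrocytes minus BV-2 and −0.27 (adjusted p = 0.384) for astrocytes minus Neuro-2A. That of astrocytes minus BV-2 was called for Rel in 3 of 23 alternatives: with the replicate block (0.03), with DESeq2 (0.0489) and without BV-2 control replicate 3 (0.00849).

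**Figure D3:**
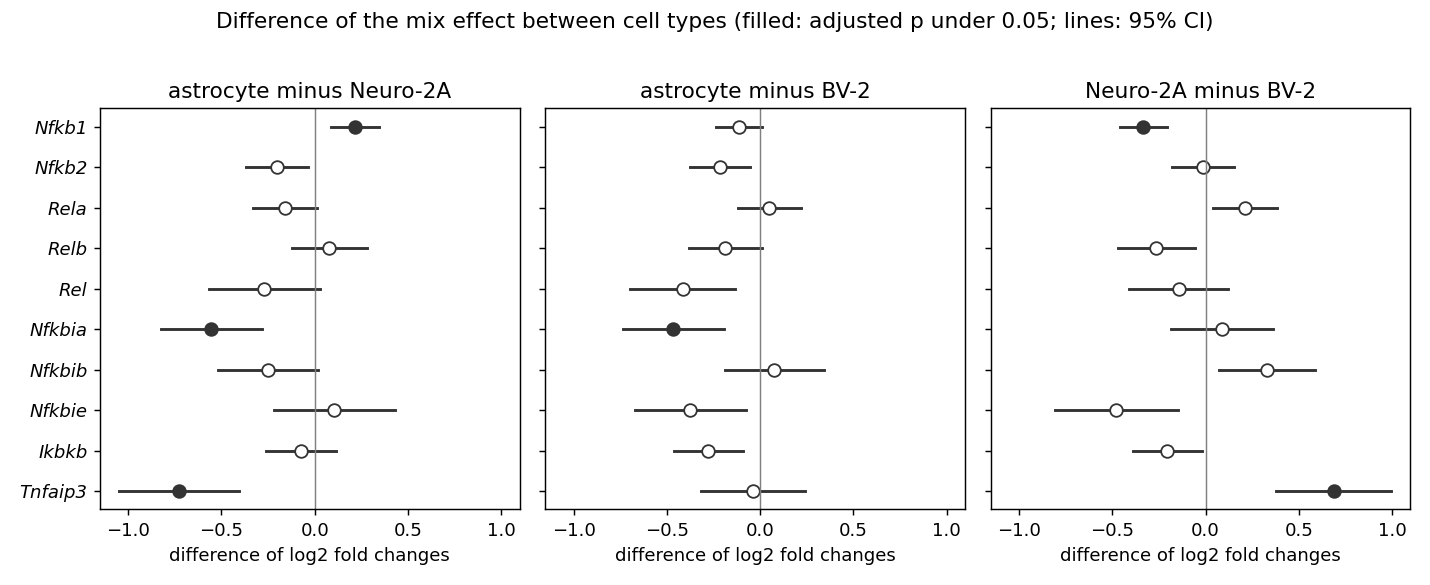
Difference of the log2 fold changes of mix over control mimic between pairs of cell types (horizontal axis), with 95% confidence intervals, for the 10 genes; filled points passed an adjusted p under 0.05. Nfkbia and Tnfaip3 lie left of 0 in astrocytes minus Neuro-2A (−0.55 and −0.73), and Tnfaip3 lies right of 0 in Neuro-2A minus BV-2 (0.69).

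Promoters of Nfkbia and Tnfaip3 are shown because both genes differed in the same direction between astrocytes and Neuro-2A cells and both are textbook NF-kB targets. The RefSeq promoter table (GRCm38.p6) held 7 of the 10 members, in 10 windows of 250 bases before a transcript start. The 10-base kB consensus was searched by script on both strands, and overlapping matches were kept. It was found in 5 of the 7 members (Nfkb2, Rel, Nfkbia, Nfkbie and Tnfaip3) and in 7 of the 10 windows, and in 7.25% of all 32851 windows of that length. The Nfkbia window (chr12:55492648-55492897, minus strand) held 1 match, which begins 29 bases before the start, and the upstream Tnfaip3 window (chr10:19015411-19015660, minus strand) held 2, which begin 125 and 12 bases before it. The match, in capitals below, is a description of the letters and does not show binding.
Nfkbia: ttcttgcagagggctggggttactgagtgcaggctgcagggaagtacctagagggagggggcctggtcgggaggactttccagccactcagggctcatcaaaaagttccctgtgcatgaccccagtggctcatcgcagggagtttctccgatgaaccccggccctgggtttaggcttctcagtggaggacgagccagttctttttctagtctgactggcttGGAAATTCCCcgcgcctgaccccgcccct
Tnfaip3: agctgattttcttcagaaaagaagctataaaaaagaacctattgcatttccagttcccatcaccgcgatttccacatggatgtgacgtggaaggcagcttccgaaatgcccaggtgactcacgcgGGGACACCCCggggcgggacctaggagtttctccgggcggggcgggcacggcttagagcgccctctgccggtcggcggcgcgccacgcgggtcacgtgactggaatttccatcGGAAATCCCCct

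The other genes of the pathway were read from 7 lists of 87 genes in all. In astrocytes 36 of the 82 that were tested fell and 8 rose, with a median log2 fold change of −0.12; in Neuro-2A cells 5 of 65 fell and 6 rose, with a median of 0.06; in BV-2 cells 11 of 81 fell and 9 rose, with a median of −0.04. These counts stand beside the shares of all genes given above. Fallen were 20.6% in astrocytes, 7.88% in Neuro-2A and 5.41% in BV-2 cells, and risen were 19.7%, 5.01% and 4.61% in the same order.

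**Figure D4:**
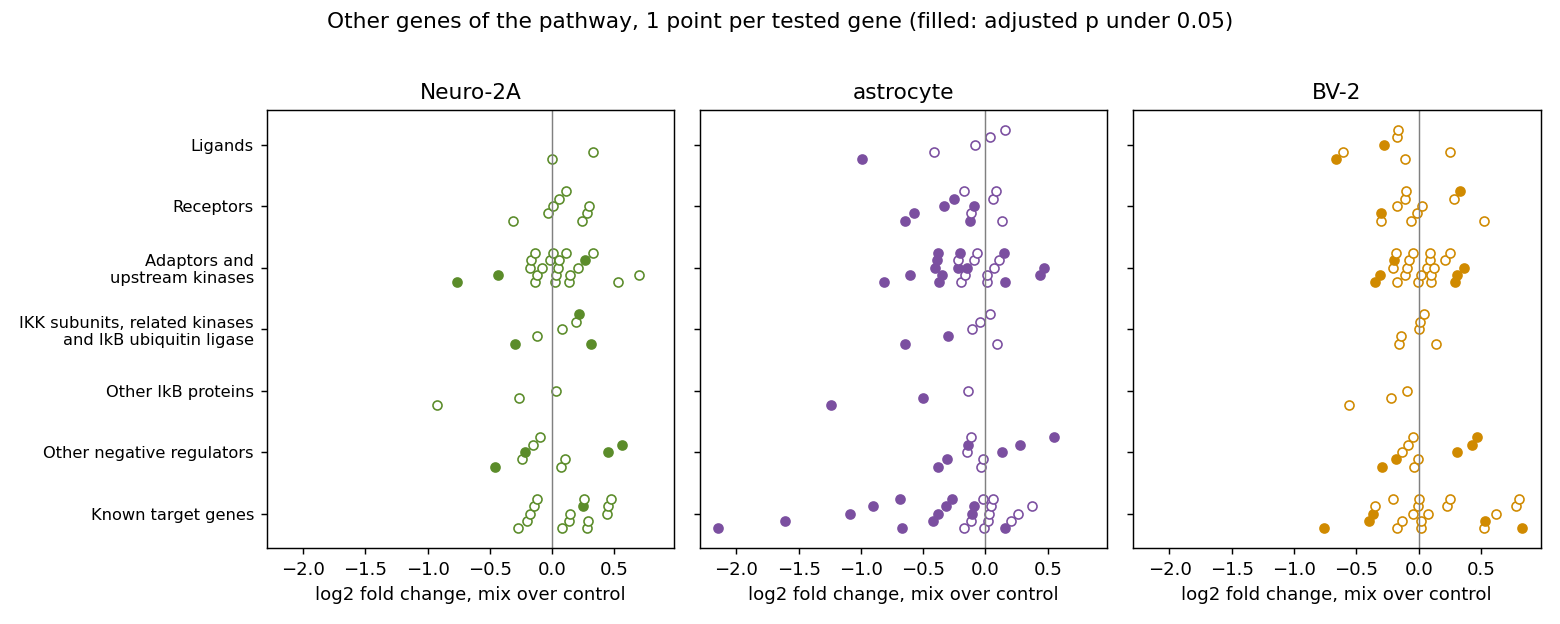
Log2 fold change of mix over control mimic (horizontal axis) for the tested genes of 7 pathway lists in each cell type, 1 point per gene and filled where the adjusted p was under 0.05. In astrocytes 36 filled points lie left of 0 and 8 right of it, and the 2 lowest, Il6 and Cxcl10, belong to the list of known target genes.

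Among ligands and receptors in astrocytes, 1 of 5 tested ligands and 6 of 11 receptors fell and 0 rose. The ligand was Il1b (log2 fold change −0.99, adjusted p = 0.0136), the gene of interleukin-1 beta, with libraries listed at the floor; its adjusted p was 0.0576 without mix replicate 1 and 0.0603 without control replicate 2. Tnfrsf12a, the receptor of the ligand TWEAK, averaged 224 ± 9 TPM in the mix and 255 ± 11 TPM in the control arm (−0.25, adjusted p = 0.000861; 0.0889 in the fit of all 18 libraries). The Toll-like receptor genes Tlr2, a sensor of bacterial lipoproteins, and Tlr3, a sensor of double-stranded RNA, fell: Tlr2 averaged 67.0 ± 6.9 TPM in the mix and 101 ± 6 TPM in the control arm (log2 fold change −0.65, adjusted p = 4.85e-06). Tlr3 averaged 177 ± 11 TPM in the mix and 253 ± 14 TPM in the control arm (−0.58, adjusted p = 1.06e-06). In BV-2 cells 2 of 7 ligands fell, Il1a by a log2 fold change of −0.67 (adjusted p = 0.0229) and Tnfsf12 by −0.28 (adjusted p = 0.0311). Without mix replicate 1 or 2 the adjusted p of Il1a was 0.0935 or 0.0883, and without mix replicate 1, 2 or 3 or control replicate 1 that of Tnfsf12 was 0.15, 0.101, 0.142 or 0.0565. Of 11 receptors in BV-2 cells, 1 fell and 1 rose: Tlr4, the receptor of lipopolysaccharide, had a log2 fold change of −0.30 (adjusted p = 0.0332), and Il1rap, a subunit of the interleukin-1 receptor, one of 0.34 (adjusted p = 0.0329). Without any 1 BV-2 library other than control replicate 2 the adjusted p of Tlr4 lay between 0.0583 and 0.17, and without mix replicate 1, 2 or 3 or control replicate 3 that of Il1rap lay between 0.075 and 0.148. In Neuro-2A cells 0 of 2 ligands and 0 of 8 receptors were called.

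Of the 23 adaptors and upstream kinases, 10 fell and 4 rose in astrocytes, 2 of 22 tested fell and 1 rose in Neuro-2A, and 3 fell and 3 rose in BV-2 cells. Tab3, an adaptor of the TAK1 kinase, fell in all 3: it averaged 4.16 ± 0.055 TPM in mix and 7.16 ± 0.30 TPM in control Neuro-2A cells (log2 fold change −0.76, adjusted p = 0.00117). Astrocytes averaged 6.52 ± 0.27 TPM of Tab3 in the mix and 10.997 ± 0.116 TPM in the control arm (−0.81, adjusted p = 2.72e-07), and BV-2 cells 10.5 ± 0.3 and 12.4 ± 1.2 TPM in the same order (−0.31, adjusted p = 0.0277). The BV-2 call of Tab3 did not hold without mix replicate 1 (0.146), 2 (0.106) or 3 (0.0979) or control replicate 1 (0.0502) or 3 (0.0828). Its partner Tab2 fell in astrocytes (−0.40, adjusted p = 9.29e-07), as did the adaptor Traf1 (−0.37, adjusted p = 6.13e-06). Traf3, an adaptor that restrains the noncanonical pathway, rose in BV-2 cells (0.29, adjusted p = 0.0132), but not without mix replicate 1 (0.0937), 2 (0.0777) or 3 (0.0605). The kinase Irak4 fell in all 3 cell types (−0.44 in Neuro-2A, −0.35 in astrocytes and −0.35 in BV-2 cells), while the ubiquitin ligase Traf6 rose in all 3 (0.26, 0.47 and 0.36 in the same order). The Irak4 call in Neuro-2A cells (adjusted p = 0.0436) did not hold without any 1 of the 6 libraries, with adjusted p from 0.0549 without control replicate 2 to 0.148 without control replicate 3, and its BV-2 call did not hold without mix replicate 1 (0.104) or 2 (0.101). The Traf6 call did not hold in Neuro-2A cells without mix replicate 2 (0.0712) or 3 (0.0891) or control replicate 2 (0.0538) or 3 (0.0743), nor in BV-2 cells without mix replicate 1 (0.0948), 2 (0.0792) or 3 (0.0815).

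The list of other IKK subunits, IKK-related kinases and IkB ubiquitin ligases held 6 genes, of which 2 fell in astrocytes. Fbxw11, a substrate adaptor of the ubiquitin ligase that marks phosphorylated IkB, averaged 97.3 ± 3.4 TPM in mix and 146 ± 3 TPM in control astrocytes (−0.65, adjusted p = 2.94e-08) and also fell in Neuro-2A cells (−0.29, adjusted p = 0.0146). The IKK scaffold Ikbkg fell in astrocytes (−0.30, adjusted p = 0.000104). In Neuro-2A cells Chuk, which encodes IKK-alpha, rose (0.21, adjusted p = 0.0389), as did Btrc, the paralog of Fbxw11 (0.31, adjusted p = 0.0183). In Neuro-2A cells the adjusted p of Fbxw11 was 0.0621 without mix replicate 3, 0.0556 without control replicate 2 and 0.0651 without control replicate 3. The adjusted p of Btrc lay between 0.0539 and 0.0862 without mix replicate 2 or 3 or control replicate 2 or 3, and that of Chuk between 0.0844 and 0.135 without any 1 library other than control replicate 1. Of 3 further IkB proteins, 2 fell in astrocytes: Bcl3, a nuclear IkB protein, averaged 7.58 ± 0.99 TPM in the mix and 17.2 ± 2.3 TPM in the control arm (−1.24, adjusted p = 2.68e-06), and Nfkbiz, another, had a log2 fold change of −0.50 (adjusted p = 0.000111). Those 3 genes were not called in Neuro-2A or BV-2 cells.

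Sites of miR-199a-3p were found in some of these genes, and those of the 2 that fell in more than one cell type are shown, with the 7mer-m8 in capitals. An 8mer or 7mer-m8 site of either searched microRNA was held by 7 of the 87 list genes (8.05%), by 4 of the 36 list genes that fell in astrocytes (11.1%), by 2 of the 5 that fell in Neuro-2A cells (Tab3 and Fbxw11) and by 1 of the 11 that fell in BV-2 cells (Tab3), against 9.24% of all genes with a 3′ UTR. In astrocytes the 4 were Tab3, Fbxw11, Bcl3 and Birc2. The weaker 7mer-A1 site was also held by list genes that rose, Cyld (miR-199a-3p) and Btrc (miR-99b-3p, 2 sites). Among those that fell in at least 1 cell type, Fbxw11, Tlr4, Ripk1, Ikbkg, Ptgs2 and Il1a held a 7mer-A1 site of either microRNA. The 7mer-m8 sites of Tab3 lie at chrX:85631752-85631758 and chrX:85633984-85633990 and those of Fbxw11 at chr11:32744546-32744552 and chr11:32745288-32745294, all on the plus strand.
Tab3, site 1: aaaagaaaaaaACTACTGtcaaaagaatg
Tab3, site 2: tgtgttgcagcACTACTGtatctttgttg
Fbxw11, site 1: cctggtcttgaACTACTGgctatatggct
Fbxw11, site 2: gcacctgagacACTACTGtggagattgtc

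Of the 10 other negative regulators, 3 fell and 3 rose in astrocytes, 2 of 9 tested fell and 2 rose in Neuro-2A, and 2 fell and 3 rose in BV-2 cells. Cyld, a deubiquitinase that removes the chains needed for IKK activation, rose in all 3 cell types. It averaged 11.9 ± 0.45 TPM in mix and 8.14 ± 0.40 TPM in control Neuro-2A cells (log2 fold change 0.56, adjusted p = 0.00179), 21.3 ± 1.3 and 13.9 ± 0.6 TPM in mix and control astrocytes (0.55, adjusted p = 1.3e-06), and 19.5 ± 0.5 and 13.5 ± 1.3 TPM in mix and control BV-2 cells (0.47, adjusted p = 0.00269). Rnf11 and Tax1bp1 encode partners of A20. Rnf11 rose in all 3 cell types, by 0.45 in Neuro-2A, 0.27 in astrocytes and 0.43 in BV-2 cells. Tax1bp1 fell in all 3, by log2 fold changes of −0.22, −0.31 and −0.19 in the same order. The Tax1bp1 call did not hold in Neuro-2A cells without mix replicate 1 (adjusted p = 0.0895) or 3 (0.129) or control replicate 2 (0.0903) or 3 (0.113), nor in BV-2 cells without mix replicate 1 (0.225), 2 (0.137) or 3 (0.197) or control replicate 3 (0.114). Otulin, a deubiquitinase of linear chains, fell in Neuro-2A cells (−0.46, adjusted p = 0.0233); its adjusted p lay between 0.0679 and 0.0816 without mix replicate 1, 2 or 3 or control replicate 3. Trim30a fell in astrocytes (−0.38, adjusted p = 1.28e-05) and rose in BV-2 cells (0.31, adjusted p = 0.00656), there not without mix replicate 2 (0.0552) or 3 (0.0506). Of the 63 list genes tested in all 3 cell types, 3 fell in all (Irak4, Tab3 and Tax1bp1) and 3 rose in all (Traf6, Cyld and Rnf11); of all 12626 genes tested in all 3, 303 fell and 176 rose in all. None of the 10 members did either.

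Of the known target genes of NF-kB, 12 of 24 tested fell and 1 rose in astrocytes. Cxcl10, a chemokine gene that interferons also induce, averaged 815 ± 82 TPM in the mix and 2381 ± 140 TPM in the control arm (log2 fold change −1.61, adjusted p = 1.89e-09). Ptgs2, the inducible cyclooxygenase, averaged 11.6 ± 1.7 TPM in the mix and 23.6 ± 3.0 TPM in the control arm (−1.09, adjusted p = 4.51e-06). Il6 also fell (−2.14, adjusted p = 8.51e-06), with some mix libraries listed at the floor. In Neuro-2A cells 0 of 15 fell and 1 rose, Tapbp (0.25, adjusted p = 0.0244), which encodes a chaperone of antigen loading; without any 1 library other than control replicate 1 its adjusted p lay between 0.051 and 0.0892. In BV-2 cells 3 of 21 fell and 2 rose: C3, a complement component, averaged 92.7 ± 4.8 TPM in the mix and 60.9 ± 8.3 TPM in the control arm (0.53, adjusted p = 0.012), and Mmp9, a matrix protease, fell by a log2 fold change of −0.76 (adjusted p = 0.0147). Bcl2l1, which encodes the survival protein Bcl-xL, also fell there (−0.37, adjusted p = 0.0203), but not without mix replicate 1 (0.109), 2 (0.0972) or 3 (0.0771). The C3 call did not hold without mix replicate 2 (0.0637) or 3 (0.0628), nor the Mmp9 call without mix replicate 1 (0.0636), 2 (0.083) or 3 (0.0638).

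For the members called in at least 1 cell type, other than Ikbkb, the genes most like them across the 18 libraries were found by the Pearson correlation of log2 CPM after the mean of each cell type was subtracted, among 15774 genes with at least 5 TPM in some group. The points share the mix-control contrast and their libraries, so these values are a description. Nfkb1 was most like Pafah1b2 and Mmd (r = 0.95 each), Rela like Mob2 (0.91) and Vps16 (0.88), and Rel like the processed pseudogene Gm5176 (0.92) and Sqle (0.88). Nfkbia was most like Daxx (0.95) and Igtp (0.90). Nfkbib was most like Pura and Rex1bd (0.88 each), and Tnfaip3 like Eif1b and Apobec1 (0.82 each). Among the members themselves, the highest correlation was that of Relb with Nfkbie (0.75), then Nfkb1 with Ikbkb (0.66) and Rela with Nfkbia (0.57). Other pairs moved in opposite directions: the lowest values were those of Nfkb1 with Nfkbib (−0.71) and Nfkb1 with Tnfaip3 (−0.49).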

How the data were processed

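Poly(A) RNA of 18 libraries in 6 groups was sequenced from a directional NEBNext Ultra II kit, as the labels' protocols state. The submitters' processing notes list mm10, STAR 2.7.10b and Trimmomatic 0.39. They do not name the program or annotation behind the counts, nor whether strand was used. Deposited expected counts were fractional for 35.7% to 42.4% of genes per library. The deposited log2 TPM column holds 0 wherever TPM did not exceed 1. After rounding, counts were tested within each cell type by edgeR 4.0.16 (R 4.3.3): filterByExpr with a minimum count of 10, TMM factors, the quasi-likelihood test, Benjamini-Hochberg adjustment and a threshold of 0.05. Levels between cell types and differences of the mix effect came from 1 fit of all libraries with 6 group means. Alternatives were DESeq2 1.42.0, RLE factors, no filter, limma 3.58.1 on log2(TPM + 1) and log2(TPM + 0.1), the replicate block, the fit of all libraries, Neuro-2A numbers 2 and 3 alone, and leaving out each library. Fits were also run on simulated counts, drawn as independent libraries with the same dispersion for all genes. That run does not cover paired or deviating libraries.

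The members, the gene lists and the tests were chosen with earlier results of these data known. All 10 members are named, from each pathway list up to 3 called genes with the smallest adjusted p per cell type, and for each called member its 2 most correlated genes; those of Ikbkb are not reported here. Pathway genes named beside these, such as Birc2 and those called in every cell type, were chosen after their values were seen. In Neuro-2A cells same-numbered libraries deviated together (r = 0.587, 0.395 and 0.262), so the numbers were taken as pairs in the block. Numbers 2 and 3 were less distinct, since mix 2 with control 3 gave r = 0.245 and mix 3 with control 2 gave 0.169. The labels do not say what the numbers mark. Library depth, 18.5 to 27.9 M counts, limits the precision of members with few counts.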

Additional observations from a re-analysis of the deposited data

Results flagged for a closer look

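For 6 members and pairs of cell types, the test of the difference of the mix effect passed an adjusted p under 0.05 in edgeR. For astrocytes minus Neuro-2A these were Tnfaip3 (log2 difference −0.73), called in 23 of 23 alternatives, Nfkbia (−0.55), called in 19 of 23, and Nfkb1 (0.22), called in 5 of 23. Nfkbia lost its call without Neuro-2A mix replicate 2 (adjusted p = 0.051), astrocyte mix replicate 1 (0.0576), astrocyte control replicate 2 (0.0538) and astrocyte control replicate 3 (0.0564). Nfkb1 lost it with RLE factors (0.055), with no low-count filter (0.345) and without 16 of the 18 libraries in turn.

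For astrocytes minus BV-2, Nfkbia differed by −0.47, called in 14 of 23 alternatives. It lost its call without astrocyte mix replicate 1 (adjusted p = 0.105) or 3 (0.0574), astrocyte control replicate 2 (0.0955) or 3 (0.101), BV-2 mix replicate 1 (0.0746), 2 (0.081) or 3 (0.0548), and BV-2 control replicate 1 (0.072) or 3 (0.0886). For Neuro-2A minus BV-2, Nfkb1 differed by −0.33 and Tnfaip3 by 0.69, both called in 23 of 23 alternatives.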

How the results depend on the processing

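Of 9 calls, Nfkb1 in Neuro-2A cells and Rel, Nfkbia and Ikbkb in astrocytes held in every alternative run. In Neuro-2A cells 3 members were called, but 1 with limma on log2(TPM + 1) or log2(TPM + 0.1), 6 with the replicate block, 6 with numbers 2 and 3 alone, 5 in the fit of all 18 libraries, and 1 to 3 without 1 library. In astrocytes 6 were called, but 3 with each limma fit and 3 in the fit of all libraries, and 4 to 6 without 1 library. Of all tested genes, 5767 to 6775 were called in astrocytes without 1 library. In astrocytes same-numbered libraries deviated together only weakly (r = 0.115, 0.0749 and 0.108), where unlike numbers gave r from −0.109 to 0.000471. In BV-2 cells same-numbered libraries gave r = 0.00793, 0.128 and −0.00514. The block lowered the coefficient of variation between libraries from 3.52% to 2.02% in astrocytes and from 6.92% to 6.67% in BV-2 cells. With the block 6 members were called in astrocytes and 0 in BV-2 cells. In BV-2 cells 0 were called, but 1, Nfkb2, with DESeq2, each limma fit and the fit of all libraries. Without 1 library 0 to 5 were called there, with 5 only without control replicate 2. Calls over all tested genes moved too, from 434 to 2985 without 1 BV-2 library, so the 5 cannot be read as particular to the members. Members whose mix effect differed numbered 3 for astrocytes minus Neuro-2A (1 to 3 without 1 library), 1 for astrocytes minus BV-2 (4 with the replicate block, 5 with limma on log2(TPM + 1), 3 with DESeq2, 0 to 3 without 1 library) and 2 for Neuro-2A minus BV-2 (4 with limma). Over all genes, the differences called without 1 library numbered 547 to 1329, 905 to 1808 and 348 to 1060 for these 3 pairs in that order. For the other alternatives the share of all genes called is not reported here, so their counts cannot be read as particular to the members. The cause was not tested.

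Of all fits, 22 changed a sign, each of a value that was not called and lay near 0. With limma on log2(TPM + 1) and log2(TPM + 0.1), astrocyte Nfkb2 was 0.0465 and 0.0472 and Relb 0.0217 and 0.0224; with the first, the difference for Ikbkb in astrocytes minus Neuro-2A was 0.00302 and for Nfkbia in Neuro-2A minus BV-2 −0.0202. Without 1 library, astrocyte Nfkb2 ranged from −0.0417 to 0.0123, and in BV-2 cells Nfkb1 from −0.00221 to 0.0166, Rel from −0.0308 to 0.188, Nfkbib from −0.069 to 0.117 and Ikbkb from −0.0208 to 0.0646. The difference for astrocytes minus BV-2 ranged from −0.011 to 0.0898 for Rela, −0.0169 to 0.17 for Nfkbib and −0.138 to 0.0586 for Tnfaip3, and for Neuro-2A minus BV-2 from −0.0715 to 0.0183 for Nfkb2 and −0.047 to 0.161 for Nfkbia.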

Other observations

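The summed TPM of the 10 genes was 366 to 386 in mix and 341 to 353 in control Neuro-2A libraries, 483 to 505 in mix and 509 to 564 in control astrocyte libraries, and 513 to 523 in mix and 462 to 506 in control BV-2 libraries. As given above, the median TPM change over all tested genes leaned to the mix in astrocytes and BV-2 cells. Nfkbia made up 48.7% of that sum in mix and 47.3% in control Neuro-2A cells, 35.8% in mix and 40.7% in control astrocytes, and 28.99% in mix and 27.89% in control BV-2 cells.

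Marker lists of further cell types were also read in the astrocyte cultures. The 7 oligodendrocyte lineage markers summed to 855 to 925 TPM in mix and 839 to 864 TPM in control libraries, with 1 fallen and 2 risen. The 10 neuronal markers summed to 298 to 301 TPM in mix and 282 to 294 TPM in control libraries, with 5 of 9 tested fallen and 1 risen. The 7 fibroblast and pericyte markers summed to 1225 to 1474 TPM in mix and 1671 to 1867 TPM in control libraries; of the 6 tested, Acta2, which made up most of the sum (1267 TPM in mix and 1733 TPM in control on average), and Rgs5 fell, while Col1a1 (log2 fold change 0.44) and Col1a2 (0.15) rose. The 6 ependymal markers summed to 747 to 852 TPM in mix and 821 to 900 TPM in control libraries, with 4 of the 6 fallen. In Neuro-2A cells the neuronal markers summed to 1018 to 1133 TPM in mix and 1237 to 1528 TPM in control libraries, with 4 of 9 tested fallen. Their part in the members' changes was not tested.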
